A study of Aedes aegypti with 12 samples.

Results

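The comparison described here set the fat body of *Aedes aegypti* AaegGr34 mutant mosquitoes, mutated in a gustatory receptor gene, against the fat body of wild-type mosquitoes of the Liverpool strain. It rests on 6 of the 12 RNA-seq libraries of the study, 3 from mutant and 3 from wild-type fat body, taken by their labels; the other 6 libraries are from brain of the same genotypes. The lesion in AaegGr34, the background of the mutant strain, the sex and age of the mosquitoes and whether they had fed on blood were not given in the sources used here. Both strains had constant access to a sucrose solution. The libraries are called biological replicates with nothing more said of animals or pools, so p-values reflect library-to-library spread only, which may be technical.

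In insects the fat body keeps triglyceride in lipid droplets and sugar as glycogen, and releases them into the blood as lipoprotein-bound lipid and trehalose. It also secretes most proteins of the blood, among them lipophorin, transferrin, clotting and melanization proteases and antimicrobial peptides, and in blood-fed females it makes yolk proteins. Transcript levels here are from bulk tissue, in which fewer cells of a type and less RNA per cell cannot be told apart.

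Depth was similar, since the mutant libraries held between 18.5 M and 23.8 M counts and the wild-type libraries between 20.3 M and 24.3 M. Levels are given as CPM (counts per 1 M, with library sizes scaled by the TMM method) for comparing one gene between libraries, and as TPM (transcripts per 1 M, corrected for gene length) for comparing genes. Genes of the lists are given in TPM in each library, and their order and spread across libraries can differ in CPM. Libraries of 1 genotype differed widely: the common biological coefficient of variation was 0.406, against 0.21 in brain. Cytosolic ribosomal protein genes held 36.8, 21.98 and 28.2% of counts in the mutant libraries and 33.4, 26.2 and 24.4% in the wild-type libraries. Fat body markers such as transferrin, vitellogenin-1, hexamerin-1.1 and apolipophorins were present in every library. Vitellogenin-1 had means at least as high in brain (83.2 CPM in mutant and 75.5 CPM in wild type) as in fat body (40.6 and 63.7 CPM). Hexamerin-1.1 and apolipophorins had higher means in fat body than in brain, with CPM scaled within each tissue. Of the 31 fat body markers tested edgeR called 0 (2 higher and 1 lower at an unadjusted p under 0.05, DESeq2 1 lower, limma-voom 0), with a median log2 fold change of -0.07. The summed TPM of the fat body markers was 1870.0, 2823 and 2707 in mutant and 2879, 3329.8 and 2949.6 in wild type, so each mutant library was below each wild-type library. As a share of counts the same markers overlapped, at 0.423, 0.465 and 0.628% in mutant and 0.606, 0.557 and 0.502% in wild type. Transcripts of 46 ovary and germline markers were present as well, at 0.246, 0.953 and 0.374% of counts in mutant and 0.176, 0.642 and 0.923% in wild type. Oskar (LOC5577338), a germ plasm gene, had 394, 1034 and 433 CPM in the mutant libraries, against 157, 510.0 and 708 CPM in the wild-type libraries. The gut marker share was 0.277, 0.919 and 1.39% in mutant and 0.392, 0.340 and 0.343% in wild type, so mutant libraries 2 and 3 stood above the other 4. Of the gut markers, 33 of 225 had no count in any fat body library, and of the ovary markers 2 of 46. Of 104 tested gut markers edgeR and limma-voom called 0, with 19 higher and 2 lower at an unadjusted p under 0.05, a median of 0.35 and 6 of them called higher by DESeq2, which also called 3 rarer gut markers higher. Of 35 tested ovary markers edgeR, DESeq2 and limma-voom called 0, none had an unadjusted p under 0.05, and the median was -0.08.

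The other marker lists also had 0 genes called by edgeR and by limma-voom. Muscle markers (62 tested) had a median of -0.11, with 0 higher and 1 lower at an unadjusted p under 0.05, and Malpighian tubule markers (34 tested) a median of 0.11, with 2 and 1. Epidermis and cuticle markers (41 tested) had a median of -0.24, with 2 and 2, and the median was -0.02 without wild-type replicate 1. Oenocyte markers (41 tested) had a median of -0.33, or 0.10 without wild-type replicate 1, with 4 and 0. Hemocyte markers (36 tested) had a median of -0.01, with 2 and 1, and neuron and glia markers (63 tested) a median of 0.01, with 3 and 2. Among the genes that edgeR tested, DESeq2 called 1 gene in each of the Malpighian, oenocyte and neuron lists higher, 1 epidermis gene lower, and 0 in the muscle and hemocyte lists; it also called 1 rarer Malpighian gene higher. The DESeq2 counts given for the lists below likewise cover the genes that edgeR tested. Over all 11558 of these genes DESeq2 called 191 higher and 133 lower, and limma-voom 25 higher and 15 lower. The part of these markers in the results below was not tested. Fits with the ovary or the gut share as a covariate were run. The gut share partly follows genotype, being highest in mutant libraries 2 and 3, so that fit cannot separate gut share from genotype.

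Few genes differed between the genotypes beyond the spread of the libraries. With edgeR's quasi-likelihood test, 16 genes rose in mutant fat body and 11 fell at an adjusted p under 0.05 ("called"), of 11558 tested. That is 0.234% called, with 0.138% higher and 0.0952% lower. At an unadjusted p under 0.05 there were 535 higher genes (4.63%) and 372 lower genes (3.22%), or 7.85% of those tested. The genotypes did not overlap in CPM for 1276 genes, or 11% of those tested, with 701 higher (6.07%) and 575 lower (4.97%), and for all 27 called genes. With 3 libraries per genotype a lack of overlap is common, so by itself it does not mark a gene as different. The smallest difference among the 27 was 4.74-fold, and 25 of the 27 genes were under 1 CPM on average in the genotype where they were lower. In 3 of the called genes every wild-type library was at 0, and in 4 every mutant library was at 0. For 73.6% of all tested genes the difference between genotype means was smaller than the standard deviation within genotypes on the log2(CPM + 0.5) scale.

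**Figure D1:**
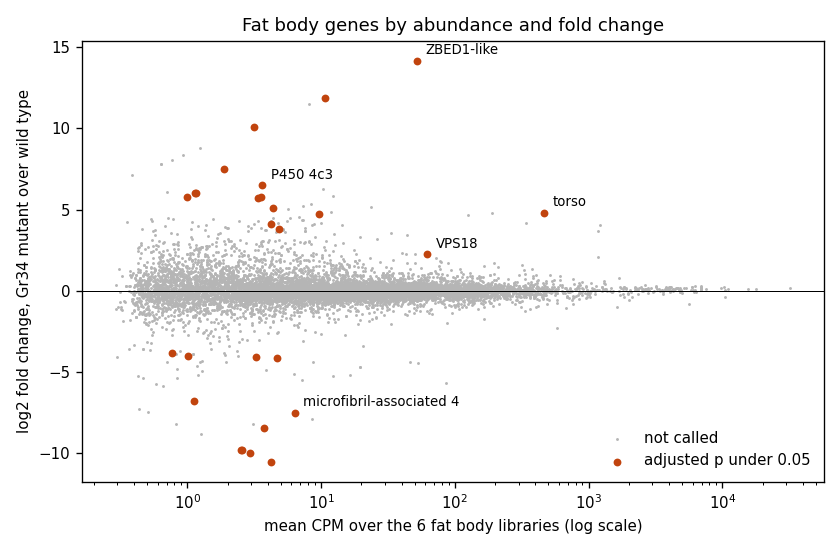
Log2 fold change (Gr34 mutant over wild type) of each of the 11558 tested genes against its mean CPM over the 6 fat body libraries, on a log axis, with the 27 called genes in red. Torso, the VPS18 homolog and ZBED1-like are the most abundant called genes, and most called genes lie at low CPM.

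Uncharacterized genes made up 16 of the 27 called genes (59.3%), against 22.5% of tested genes, and long noncoding RNAs made up 12 of the 27 (44.4%), against 6.4%. Counts with a fraction, which leave a gene's reads uncertain, occurred in 23 of the 27 (85.2%), against 53.7% of tested genes. Some of the 27 had counts close to those of another called gene, as given below, so these shares may count the same reads under different genes. Another annotated gene overlapped 9 of the 27. By position on AaegL5.0, 10 lay on chromosome 1, 9 on chromosome 2 and 5 on chromosome 3, and 3 had no position here.

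The most abundant called gene was the receptor torso (LOC5574477, chromosome 2, 214566733 to 214765147, minus strand), known in *Drosophila* as the tyrosine kinase receptor of terminal patterning and of prothoracicotropic hormone. Torso had 818, 747 and 1125 CPM in the mutant libraries, against 15.6, 36.7 and 43.3 CPM in the wild-type libraries. All 3 mutant libraries were far above the wild-type libraries, with 897 ± 201 CPM in mutant and 31.9 ± 14.4 CPM in wild type (mean ± SD, n = 3), or 28.1-fold more (log2 fold change 4.81, SE 0.51, edgeR adjusted p 0.0333). Its span overlaps 2 other genes and its counts are not all whole, so its reads cannot be assigned with certainty.

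The VPS18 homolog (LOC5564402, chromosome 1, 104599428 to 104607788, minus strand), a subunit of the complexes that tether vesicles at endosomes and lysosomes, had 96.6, 121 and 91.96 CPM in the mutant libraries, against 22.3, 19.3 and 23.7 CPM in the wild-type libraries. Here the replicates were close in CPM and the genotypes far apart (103 ± 15.6 CPM in mutant and 21.8 ± 2.24 CPM in wild type, 4.74-fold, log2 fold change 2.25, SE 0.25, edgeR adjusted p 0.0333). In TPM the replicates spread more, from 28.8 to 79.9 in mutant and from 6.82 to 14.7 in wild type. The gene has whole counts and overlaps no annotated gene.

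Cytochrome P450 4c3 (LOC5569919, chromosome 1, 74459415 to 74471658, minus strand), a member of a heme enzyme family that oxidises hormones, lipids and foreign compounds, had 7.30, 7.90 and 6.44 CPM in the mutant libraries, against 0.0566, 0.0865 and 0.0759 CPM in the wild-type libraries. It was the called gene with the smallest p, with 7.21 ± 0.734 CPM in mutant and 0.0730 ± 0.0151 CPM in wild type (log2 fold change 6.50, SE 0.42, adjusted p 0.00733), and its counts are whole. Serine protease 53 (LOC5572144) had 12.7, 17.6 and 25.4 CPM in the mutant libraries, against 1.25, 0.432 and 0.493 CPM in the wild-type libraries. The lowest mutant library was above the highest wild-type library (log2 fold change 4.70, SE 0.53, adjusted p 0.0361).

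A gene described as erythroid transcription factor (LOC5573046), a name used for a GATA-family factor of vertebrates, had 4.27, 13.8 and 7.59 CPM in the mutant libraries, against 0.396, 0.173 and 0.190 CPM in the wild-type libraries (log2 fold change 5.09, SE 0.62, adjusted p 0.0390). The mutant libraries spread from 4.27 to 13.8 CPM, yet all lay above wild type; the gene overlaps a neighbour and has fractional counts. Zinc finger BED domain-containing protein 1-like (LOC110676965, chromosome 2, 399044424 to 399063984, minus strand), of a family related to transposase genes, had 76.4, 140.3 and 98.3 CPM in the mutant libraries, against 0, 0 and 0 CPM in the wild-type libraries. The wild-type libraries were at 0, so mutant fat body was at least 2350.2-fold higher, taking 3 counts over the wild-type group as the floor (adjusted p 0.0163). The uncharacterized noncoding gene LOC110676967, at 5.30, 7.77 and 5.83 CPM in mutant and 0, 0 and 0 CPM in wild type, lies inside its span on the other strand, so reads of these 2 genes cannot be told apart (at least 141-fold, adjusted p 0.0333).

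Digestive organ expansion factor homolog (LOC110681240), named for a nucleolar protein of ribosome production studied in zebrafish, had 10.5, 6.47 and 6.99 CPM in the mutant libraries, against 0.340, 0.476 and 0.531 CPM in the wild-type libraries (log2 fold change 4.12, SE 0.40, adjusted p 0.0333). 39S ribosomal protein L40, mitochondrial-like (LOC110681241), a part of the mitochondrial ribosome, had 12.5, 5.89 and 8.64 CPM in the mutant libraries, against 0.736, 0.778 and 0.379 CPM in the wild-type libraries (log2 fold change 3.83, SE 0.47, adjusted p 0.0390). In both genes each mutant library was above each wild-type library.

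Microfibril-associated glycoprotein 4 (LOC5577410, chromosome 1, 192983513 to 192984868, minus strand), a secreted fibrinogen-domain protein, had 0.129, 0.0324 and 0.0550 CPM in the mutant libraries, against 21.1, 10.9 and 6.14 CPM in the wild-type libraries. The mutant libraries were near 0 and the wild-type libraries differed among themselves (log2 fold change -7.50, SE 0.74, adjusted p 0.0333), with whole counts. Putative nuclease HARBI1 (LOC110678556), derived from a transposase, had 0, 0 and 0.0550 CPM in the mutant libraries, against 2.27, 10.98 and 9.29 CPM in the wild-type libraries (log2 fold change -8.45, SE 1.08, adjusted p 0.0390). PiggyBac transposable element-derived (LOC110679851), below the abundance limit for naming and named after its values were seen, was lower at 0.129, 0.0647 and 0.165 CPM in mutant and 1.93, 2.08 and 1.74 CPM in wild type (adjusted p 0.0390).

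Of the uncharacterized genes, LOC110676755 had 9.89, 37.6 and 16.95 CPM in the mutant libraries, against 0, 0 and 0 CPM in the wild-type libraries, at least 480.4-fold more (adjusted p 0.0390). On the low side, LOC5580288 had 0, 0 and 0 CPM in the mutant libraries, against 13.6, 5.27 and 6.64 CPM in the wild-type libraries, at least 183-fold less, and LOC5564187 had 0, 0 and 0 CPM in the mutant libraries, against 3.29, 5.79 and 8.46 CPM in the wild-type libraries, at least 126-fold less (adjusted p 0.0390 and 0.0390). The wild-type counts of LOC5564187, 58, 134 and 223, were close to those of LOC110681508, another called gene, at 57, 146 and 233. In the mutant libraries LOC5564187 had 0 counts and LOC110681508 had 5, 11 and 7, and the wild-type reads of the pair cannot be assigned with certainty. Other pairs of called genes had near-equal counts in each fat body library, so their reads cannot be assigned with certainty either: LOC110675315 with LOC110677934, LOC110676361 with LOC110676961, and LOC110678865 with LOC110681396.

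**Figure D2:**
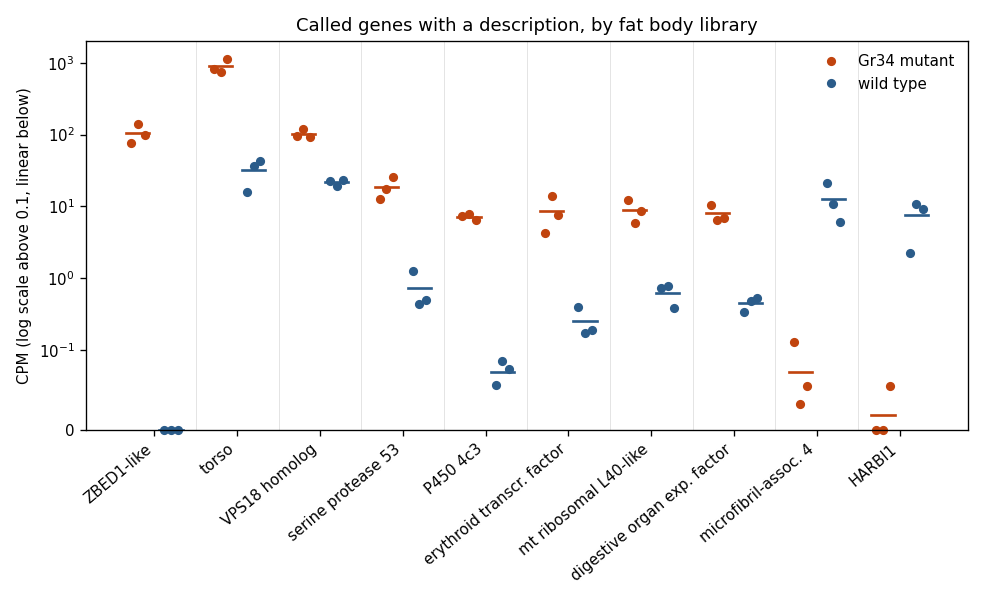
CPM of 10 called genes with a description in each fat body library (points) and their means (lines), mutant left and wild type right, on a log axis that is linear below 0.1. No mutant point overlaps a wild-type point for any of the 10 genes, and the wild-type ZBED1-like points are at 0.

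No called gene kept its call in each of the 6 fits that left out 1 library. P450 4c3 and ZBED1-like stayed called in 3 of the 6 fits, 3 genes in 2, 15 in 1 and 7 in none. Every one of the 27 kept its direction in all 6 fits, and the highest unadjusted edgeR p over these fits was 0.00135. Direction had little room to change, since the genotypes did not overlap for any of the 27. Without wild-type replicate 2, mutant replicate 1 or mutant replicate 3, edgeR's quasi-likelihood test called 0 genes, with 644, 987 and 664 genes at an unadjusted p under 0.05. On all 6 libraries DESeq2 called 381 of 16687 genes and limma-voom 40 of 11558. All 27 were also called in the authors' deposited table, which has 218 genes higher and 166 lower from the same libraries.

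Most called genes that were tested in brain moved the same way there. Of the 27, 20 were tested in brain and 17 were called there, each in the fat body direction, where 8.86% of 11848 tested brain genes were called in all. P450 4c3 and ZBED1-like were too rare in brain to test. P450 4c3 averaged 0.354 CPM in mutant brain and 0.356 CPM in wild-type brain, and ZBED1-like 0.257 and 0.0342 CPM. Called genes with near-equal counts are taken as separate genes in these numbers and in those between tissues. The fat body and brain comparisons use separate libraries of the same strains. The difference between tissues, tested as a contrast over the 12 libraries, was called for 60 of 12859 genes (0.467%) and for 5 of the 27. Torso had 43.2, 56.9 and 31.4 CPM in mutant brain and 12.2, 13.1 and 13.97 CPM in wild-type brain (log2 fold change 1.75, SE 0.21), so its rise was larger in fat body by 3.12 on the log2 scale (SE 0.50, adjusted p 0.0296). Serine protease 53 had 18.4, 18.2 and 17.2 CPM in mutant brain and 7.30, 5.24 and 6.32 CPM in wild-type brain. All mutant brain libraries were above the wild-type ones, and its rise was larger in fat body by 3.26 (SE 0.50, adjusted p 0.0254).

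The VPS18 homolog had 37.5, 30.5 and 32.6 CPM in mutant brain and 33.1, 33.2 and 46.6 CPM in wild-type brain, which overlapped and were not called (log2 fold change -0.17, SE 0.16), and the tissues differed by 2.46 (SE 0.26, adjusted p 0.00642). The neighbouring uncharacterized genes LOC110681507 and LOC110681508 on chromosome 1 fell in fat body, at 0.452, 0.486 and 0.550 CPM in mutant and 4.70, 9.08 and 12.8 CPM in wild type for the first, and overlapped in brain, at 7.30, 6.31 and 5.74 CPM in mutant brain and 6.37, 6.01 and 4.68 CPM in wild-type brain. Their differences between tissues were -4.28 (SE 0.50) and -4.22 (SE 0.52), each with an adjusted p of 0.00863, and their counts keep a near-constant ratio, so their reads cannot be assigned with certainty.

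**Figure D3:**
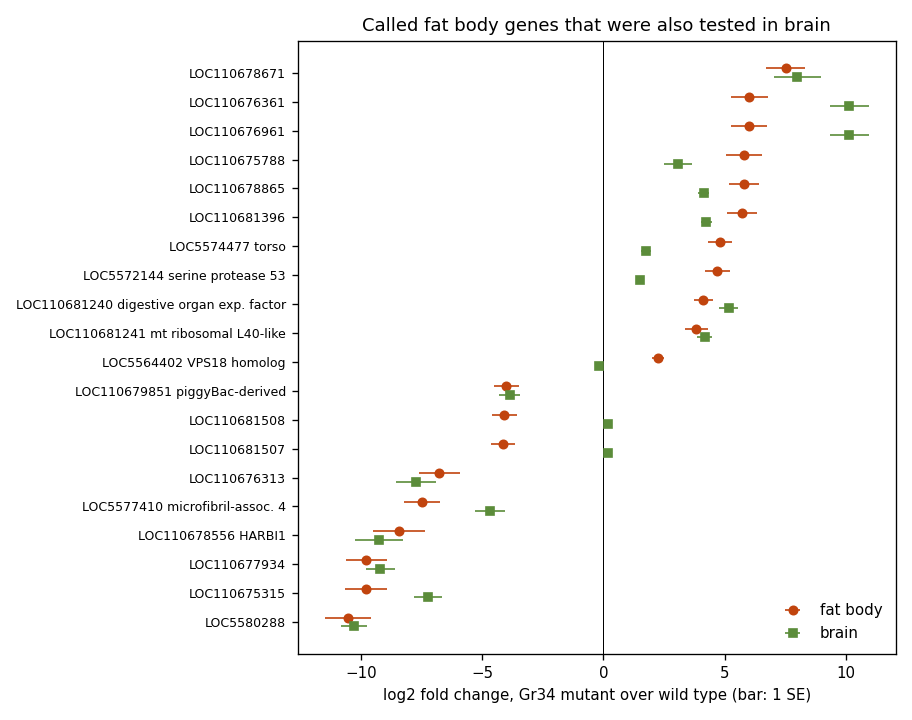
Log2 fold change (Gr34 mutant over wild type) with 1 SE for the 20 called fat body genes that were also tested in brain, fat body in red circles and brain in green squares. VPS18, LOC110681507 and LOC110681508 are near 0 in brain, and the other 17 lie on the same side of 0 in both tissues.

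Yolk and reserve protein genes had no call. Of 19 genes, 10 were abundant enough to test; edgeR called 0, as did DESeq2 and limma-voom among these 10, and 1 was higher at an unadjusted p under 0.05. DESeq2, which kept rarer genes, called a further hexamerin-1.1 gene (LOC5566631) lower, listed at 0 TPM in each mutant library and at 0.549, 0.902 and 0.273 TPM in the wild-type libraries. The median log2 fold change of the 10 was -0.23, against -0.00365 over all genes. Vitellogenin-1 (LOC5567092), a yolk protein precursor, had 17.9, 51.6 and 54.3 TPM in the mutant libraries, against 71.6, 58.9 and 39.7 TPM in the wild-type libraries. The genotypes overlapped, with mutant library 1 the lowest (log2 fold change -0.65, SE 0.51). Hexamerin-1.1 (LOC5579047), an amino acid storage protein of larvae, had 26.2, 39.6 and 48.5 TPM in the mutant libraries, against 19.3, 19.96 and 11.99 TPM in the wild-type libraries. The genotypes were apart in TPM and overlapped in CPM (log2 fold change 1.1, SE 0.45, p 0.0443, adjusted p 0.608), and in brain the same gene was called higher (1.44, adjusted p 0.0133). Vitellogenic carboxypeptidase-like (LOC5568116), of a family of secreted yolk enzymes, had 5.74, 10.3 and 12.7 TPM in the mutant libraries, against 9.47, 13.9 and 14.98 TPM in the wild-type libraries, with overlap.

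Fatty acid synthesis was among the most abundant lipid functions and varied between libraries of 1 genotype. Of 57 tested genes edgeR called 0 (6 higher and 1 lower at an unadjusted p under 0.05; DESeq2 2 higher and 1 lower; limma-voom 1 lower), with a median of -0.20 that was 0.17 without wild-type replicate 1. Acyl-CoA Delta(11) desaturase (LOC5577524), which puts a double bond into fatty acids, had 1681, 2951 and 2257 TPM in the mutant libraries, against 2606, 2954 and 1363 TPM in the wild-type libraries. Fatty acid synthase (LOC5568814), which builds palmitate, had 734, 2186 and 1412 TPM in the mutant libraries, against 1842, 2325 and 756 TPM in the wild-type libraries. ATP-citrate synthase (LOC5564509), the source of cytosolic acetyl-CoA, had 198, 725 and 465 TPM in the mutant libraries, against 696, 803 and 249 TPM in the wild-type libraries. In TPM, mutant library 1 and wild-type library 3 were the lowest of their genotypes for all 3 genes, and the genotypes overlapped (log2 fold changes -0.10, -0.37 and -0.57; SE 0.57, 0.65 and 0.64). In CPM the order differed for the desaturase, which had 6788, 5384 and 6128 CPM in the mutant libraries, against 10281, 6643 and 2636 CPM in the wild-type libraries, so that mutant library 1 was the highest of the mutant libraries.

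Other genes of this list were chosen after their values were seen. Another fatty acid synthase gene (LOC5573931), of low abundance, had 0, 0 and 0.0442 TPM in the mutant libraries, against 1.17, 7.26 and 3.55 TPM in the wild-type libraries. It lay just outside the threshold (adjusted p 0.0513; called lower by DESeq2 and limma-voom). Stearoyl-CoA desaturase 5 (LOC5578684), another desaturase, had 11.4, 22.8 and 17.3 TPM in the mutant libraries, against 5.25, 4.98 and 10.8 TPM in the wild-type libraries, with no overlap (log2 fold change 1.35, SE 0.30, adjusted p 0.177).

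Lipid droplet and triglyceride genes differed by less than their spread in most cases, and none was called. Of 21 tested, edgeR called 0, as did DESeq2 and limma-voom, and 0 had an unadjusted p under 0.05. Of the 21 fold changes 18 were negative (median -0.27), while 49.5% were positive over all tested genes. The list's median level had a standard deviation of 0.56 (log2) within genotypes. For 85.7% of the 21 genes the difference between genotypes was smaller than the within-genotype spread. Lipid storage droplets surface-binding protein 1 (LOC5567287), a perilipin that coats droplets and controls lipase access, had 624, 1072 and 906 TPM in the mutant libraries, against 902, 1107 and 692 TPM in the wild-type libraries. Protein 2 of this name (LOC5568403), which protects stored lipid, had 552, 981 and 623 TPM in the mutant libraries, against 654, 1239.7 and 779 TPM in the wild-type libraries. In CPM its order differed, with 1065, 855 and 808 in mutant and 1233, 1332 and 720 in wild type. Glycerol-3-phosphate acyltransferase 3 (LOC110679163), of the first step of triglyceride synthesis, had 62.3, 140.4 and 110.3 TPM in the mutant libraries, against 132, 178 and 115 TPM in the wild-type libraries. The genotypes overlapped for each of these genes.

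Lipid transport and breakdown genes had no call, with 2 of 20 and 2 of 47 at an unadjusted p under 0.05, against 7.85% of all tested genes. Apolipophorins (LOC5572681), the protein of the lipid-carrying particle of insect blood, had 264, 298 and 497 TPM in the mutant libraries, against 336, 277 and 285 TPM in the wild-type libraries. Apolipoprotein D (LOC5578236), a lipocalin, had 265, 179 and 206 TPM in the mutant libraries, against 207, 190.2 and 193 TPM in the wild-type libraries. The probable fatty acid-binding protein (LOC5567329) had 101, 217 and 146 TPM in the mutant libraries, against 96.6, 193 and 199 TPM in the wild-type libraries. In CPM its libraries were close, at 166, 162 and 163 in mutant and 156, 178 and 157 in wild type. The genotypes overlapped for all 3 genes. Of 20 transport genes edgeR called 0 (1 higher and 1 lower at p under 0.05; DESeq2 1 lower, limma-voom 0) with a median of -0.03. Of 47 lipase and oxidation genes it called 0 (1 and 1 likewise; DESeq2 1 lower, limma-voom 0), with a median of -0.02. The most abundant of these, a probable mitochondrial enoyl-CoA hydratase (LOC5563904) of beta-oxidation, had 189.6, 305 and 269 TPM in the mutant libraries, against 327, 379 and 273 TPM in the wild-type libraries, with overlap. Apolipophorin-3 (LOC5571084), which binds lipophorin as it loads lipid, had 239.8, 99.8 and 178 TPM in the mutant libraries, against 60.4, 79.4 and 127 TPM in the wild-type libraries (p 0.0496, adjusted p 0.633). Lipase 3-like (LOC110674343) had 199.6, 93.6 and 130.0 TPM in the mutant libraries, against 39.6, 58.1 and 62.2 TPM in the wild-type libraries (adjusted p 0.403). Both were picked once their values were seen, and the lipase gene did not overlap between genotypes.

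Sugar storage genes had no call either. In the glycogen and trehalose list (13 tested) edgeR, DESeq2 and limma-voom called 0, with 0 at an unadjusted p under 0.05 and a median of -0.01 (0.33 without wild-type replicate 1). Trehalose-phosphate synthase (LOC5568007), which makes the blood sugar trehalose, had 257, 527 and 425 TPM in the mutant libraries, against 453, 439 and 336 TPM in the wild-type libraries. Glycogen phosphorylase (LOC5565921), which releases glucose from glycogen, had 81.04, 332 and 168 TPM in the mutant libraries, against 106, 248 and 84.4 TPM in the wild-type libraries, with mutant library 2 the highest. Among glycolysis genes (19 tested, 1 higher and 1 lower at p under 0.05, DESeq2 1 higher, limma-voom 0) edgeR called 0, with a median of -0.10. The gene that DESeq2 called is in the list by its description alone and is given further below. Enolase (LOC5571664), a glycolytic enzyme, had 407, 1063 and 759.7 TPM in the mutant libraries, against 883, 1113 and 538 TPM in the wild-type libraries. The genotypes overlapped for trehalose-phosphate synthase, glycogen phosphorylase and enolase. Insulin and TOR signalling genes (35 tested, median -0.01) had 0 called and 0 at p under 0.05, and 0 by DESeq2 and limma-voom.

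**Figure D4:**
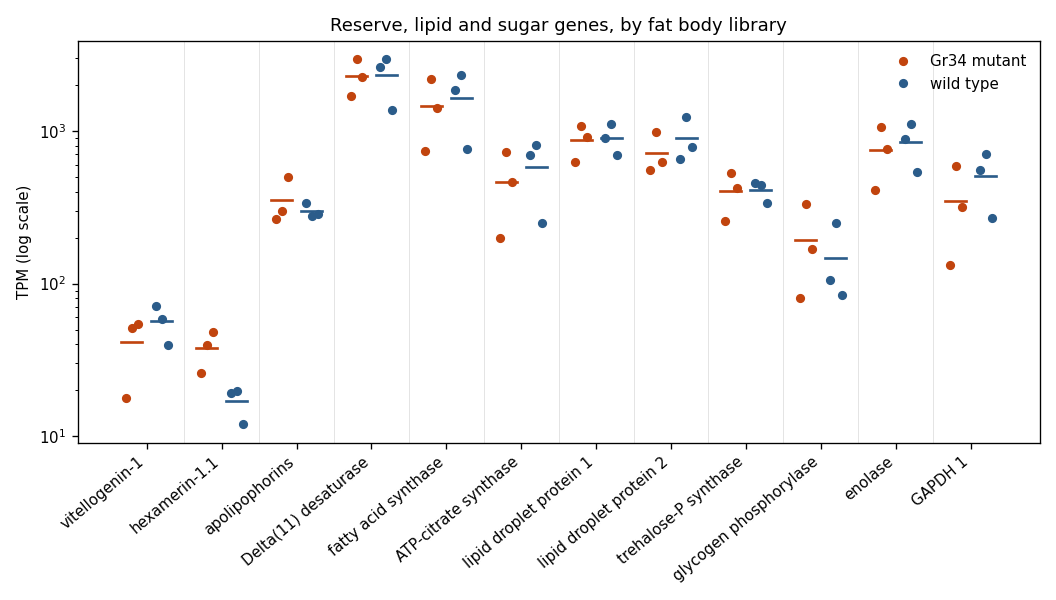
TPM of 12 reserve, lipid and sugar genes in each fat body library (points) with the mean of each genotype (line), mutant left and wild type right, on a log axis. Genotypes overlap for all but hexamerin-1.1, and mutant library 1 and wild-type library 3 have low TPM for the fatty acid genes and enolase.

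Antimicrobial peptides were the secreted list that stood lowest in mutant fat body, at levels that also varied widely among wild-type libraries. The 12 tested antimicrobial peptide and lysozyme genes had a median log2 fold change of -1.89, the lowest of the 27 lists; edgeR called 0, 5 were lower and 0 higher at an unadjusted p under 0.05, DESeq2 called 5 lower and limma-voom 0. Without wild-type replicate 1 the median was -0.37, without mutant replicate 1 it was -3.69, and over genes with whole counts it was 0.71. Holotricin-3 (LOC23687956), a glycine-rich peptide, was the most abundant, with 594, 825 and 1027 TPM in the mutant libraries, against 2346, 1104 and 1289 TPM in the wild-type libraries. Mutant libraries were lower in TPM and overlapped in CPM (log2 fold change -1.09, SE 0.60, adjusted p 0.847).

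The defensins and the cecropin-like genes were chosen after their values were seen. Defensins and cecropins are peptides that the fat body secretes against bacteria, but both cecropin-like genes here are annotated as long noncoding RNAs. Defensin-C (LOC5579094) had 17.6, 3.53 and 4.89 TPM in the mutant libraries, against 348, 31.1 and 231 TPM in the wild-type libraries (log2 fold change -4.40, SE 1.29, adjusted p 0.344). Defensin-A-like (LOC5579095) had 15.7, 3.48 and 8.22 TPM in the mutant libraries, against 363, 64.9 and 229 TPM in the wild-type libraries (log2 fold change -4.48, SE 1.1, adjusted p 0.236). Cecropin-like LOC5579377 had 4.29, 0.413 and 2.01 TPM in the mutant libraries, against 160.4, 7.16 and 92.3 TPM in the wild-type libraries (log2 fold change -5.26, SE 1.47, adjusted p 0.325). Wild-type library 2 was the lowest of the wild-type libraries for each of these 3 genes, and their genotypes were apart in TPM while only defensin-A-like was apart in CPM. The other cecropin-like gene, LOC5564828, had 60.4, 2.50 and 5.99 TPM in the mutant libraries, against 229, 6.97 and 88.4 TPM in the wild-type libraries. Its genotypes overlapped (log2 fold change -2.05, SE 1.63, edgeR p 0.248), and its fold change ran between -5.09 and -0.02 over the fits that left out 1 library. The 2 defensin-A genes (LOC5579099 and LOC110680759) had near-equal counts and cannot be told apart. Both are among the 5 lower genes of the list. Its 12 tested genes, 5 lower genes and median may therefore count the same reads under both genes. The 4 positive fold changes of the list all belonged to lysozymes, which cut bacterial cell walls, and none was called. Lysozyme c-1 (LOC23687552) had 159.6, 154 and 248 TPM in the mutant libraries, against 101, 145 and 105 TPM in the wild-type libraries (log2 fold change 0.79). Lysozyme (LOC5573760) had 209, 90.6 and 138 TPM in the mutant libraries, against 92.1, 103 and 107 TPM in the wild-type libraries (log2 fold change 0.78). The lysozyme-like gene LOC110676293 had a negative fold change.

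Transferrin (LOC5579417), an iron-binding blood protein, had 83.2, 93.4 and 214 TPM in the mutant libraries, against 724, 412 and 852 TPM in the wild-type libraries. Each mutant library was below each wild-type library (log2 fold change -2.32, SE 0.60). It was not called by edgeR (adjusted p 0.270) but was by DESeq2. Peptidoglycan-recognition protein 2 (LOC5571998), a sensor of bacterial wall, had 6.85, 5.30 and 6.999 TPM in the mutant libraries, against 107, 24.4 and 52.8 TPM in the wild-type libraries. It too did not overlap (log2 fold change -3.38, SE 0.83, edgeR adjusted p 0.231). Both were picked once their values were seen, and in brain neither was called (-0.10 and -0.16).

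The other blood protein lists, drawn up by text patterns on descriptions, had no call. Microfibril-associated glycoprotein 4 (LOC5577410) and serine protease 53 (LOC5572144), both called and given above, are in none of these lists. Of 61 iron and transport genes edgeR and limma-voom called 0 (2 higher and 1 lower at p under 0.05; DESeq2 1 lower), with a median of -0.07. Ferritin subunit (LOC5569124), which stores iron, had 1529.9, 1159.8 and 1213 TPM in the mutant libraries, against 1316, 1301 and 1018 TPM in the wild-type libraries. Soma ferritin (LOC5569122) had 712, 637 and 616 TPM in the mutant libraries, against 587, 695 and 489 TPM in the wild-type libraries. A gene described as major latex allergen Hev b 5 (LOC23687875) had 2296, 545 and 993 TPM in the mutant libraries, against 233, 264 and 792 TPM in the wild-type libraries (adjusted p 0.576). The genotypes overlapped for these genes, and mutant library 1 was the highest for the allergen-like gene. Of 53 recognition genes edgeR and limma-voom called 0 (6 higher and 1 lower at p under 0.05; DESeq2 1 and 1), with a median of 0.09. Galectin-9 (LOC5579108), a sugar-binding protein, had 325, 151 and 232 TPM in the mutant libraries, against 66.6, 70.03 and 129.8 TPM in the wild-type libraries (adjusted p 0.438). Of 92 clip proteases, serpins and prophenoloxidases they called 0 (5 higher and 6 lower; DESeq2 2 and 2), with a median of -0.03 (0.43 without wild-type replicate 1). Melanization protease 1 (LOC5568251) had 303, 484 and 516 TPM in the mutant libraries, against 539.9, 592 and 339.7 TPM in the wild-type libraries. Serine protease easter (LOC5578692) had 473, 433 and 505 TPM in the mutant libraries, against 331, 343 and 293 TPM in the wild-type libraries. Serpin 27A (LOC5563725), of the protease inhibitor family, had 353, 435 and 535 TPM in the mutant libraries, against 324, 341 and 281 TPM in the wild-type libraries. Easter and serpin 27A were apart in TPM and overlapped in CPM.

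**Figure D5:**
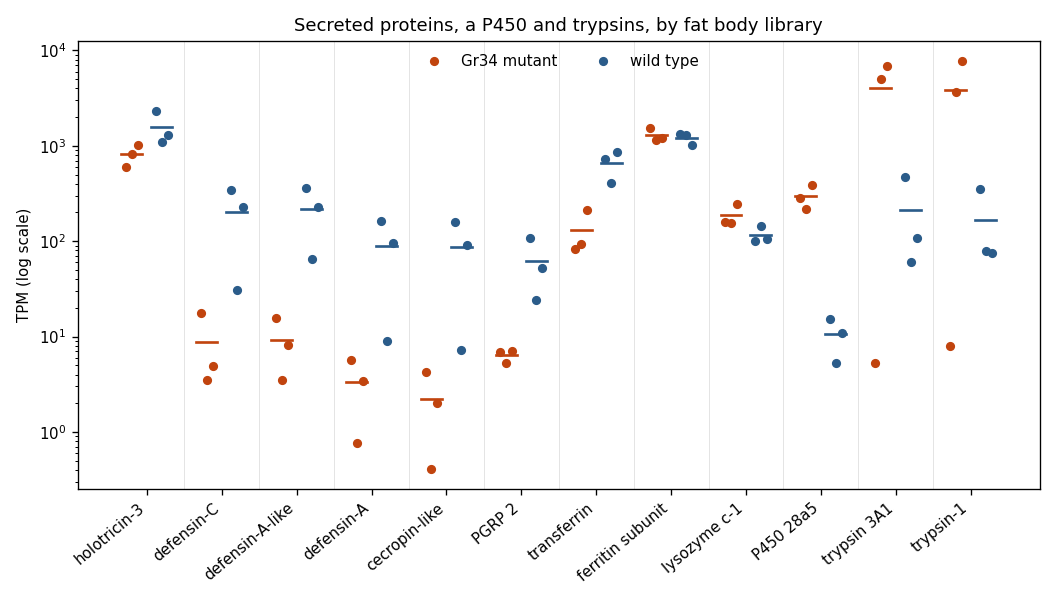
TPM of 9 genes described as secreted proteins (including a recognition protein), P450 28a5, and 2 trypsins in each fat body library (points) with the mean of each genotype (line), mutant left and wild type right, on a log axis. The cecropin-like gene is annotated as a long noncoding RNA. Defensins, the cecropin-like gene, PGRP 2 and transferrin lie lower in mutant, P450 28a5 higher, and mutant library 1 is far below mutant libraries 2 and 3 for the trypsins.

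Cytochrome P450 genes had the only list member called by edgeR, P450 4c3: 1 higher and 0 lower of 96 tested, with 10 higher and 4 lower at an unadjusted p under 0.05 and a median of 0.05 (0.45 without wild-type replicate 1). Of the same 96, DESeq2 called 6 higher and 3 lower, and limma-voom 2 higher and 0 lower. Over all 11558 tested genes DESeq2 called 191 higher and 133 lower, and limma-voom 25 and 15. The most abundant, P450 4g15 (LOC5564064), of a family that makes cuticle hydrocarbons, had 652, 1119.5 and 1041 TPM in the mutant libraries, against 1346, 1439 and 753 TPM in the wild-type libraries, with overlap. P450 28a5 (LOC5568656), chosen after its values were seen, had 285, 217 and 392 TPM in the mutant libraries, against 15.4, 5.24 and 10.97 TPM in the wild-type libraries. The genotypes were far apart, but edgeR did not call it (log2 fold change 4.80, SE 0.77, adjusted p 0.0693), while DESeq2 did (adjusted p 1.9e-11). In brain it was called (2.48, adjusted p 0.00161). Ecdysone 20-monooxygenase (LOC5574128), which makes the active moulting hormone, had 0.417, 1.20 and 1.31 TPM in the mutant libraries, against 6.17, 3.56 and 5.94 TPM in the wild-type libraries, with no overlap (adjusted p 0.141), also chosen after its values were seen. Of 30 juvenile hormone and ecdysone genes edgeR and limma-voom called 0 (0 higher and 2 lower at p under 0.05; DESeq2 2 lower), with a median of -0.11.

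The most abundant transcripts overlapped between the genotypes. Elongation factor 1-alpha (LOC23687516) had 23394, 20493 and 24981 TPM in the mutant libraries, against 22737, 19541 and 22265 TPM in the wild-type libraries. Heat shock 70 kDa protein cognate 4 (LOC110678734), a chaperone, had 8789, 8963 and 10145 TPM in the mutant libraries, against 9312, 8380.4 and 9649.9 TPM in the wild-type libraries. The same held for each of the 15 most abundant genes that are neither described as ribosomal proteins nor transcribed from the mitochondrial genome. Cytosolic ribosomal proteins (91 tested) had 0 called by edgeR, DESeq2 and limma-voom, 0 higher and 1 lower at p under 0.05, and a median of 0.10. Of 62 secretory pathway genes, 50 had positive fold changes (median 0.14), against 49.5% of all tested genes. The list's median level had a standard deviation of 0.28 (log2) within genotypes. Of these genes 2 were higher at p under 0.05, and edgeR, DESeq2 and limma-voom called 0. Protein disulfide-isomerase (LOC5565441), which folds secreted proteins, had 608, 672 and 844 TPM in the mutant libraries, against 737, 667 and 736 TPM in the wild-type libraries. Sugar transporters (34 tested, median 0.13; 2 higher and 2 lower at p under 0.05) and amino acid genes (73 tested, median -0.05, or 0.24 without wild-type replicate 1; 5 and 4) had 0 called by edgeR and limma-voom, and DESeq2 called 1 higher, and 1 higher and 1 lower. Facilitated trehalose transporter Tret1 (LOC5565788), which exports trehalose, had 459, 429.7 and 395 TPM in the mutant libraries, against 309.5, 269 and 269 TPM in the wild-type libraries, apart in TPM and overlapping in CPM.

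The widest within-genotype ranges belonged to digestive proteases. Trypsin 3A1 (LOC5569681) had 5.23, 5073 and 6905 TPM in the mutant libraries, against 472, 60.3 and 109 TPM in the wild-type libraries. Trypsin-1 (LOC5576966) had 7.91, 3662 and 7756 TPM in the mutant libraries, against 348, 79.3 and 75.98 TPM in the wild-type libraries. Mutant library 1 was the lowest of all 6 libraries and mutant libraries 2 and 3 the highest, as for serine protease SP24D (LOC5571844) and probable chitinase 10 (LOC5565474). Both trypsins are members of the gut marker list. With the gut share as a covariate edgeR called 0 genes (707 at an unadjusted p under 0.05). That share partly follows genotype in these libraries, so the fit cannot separate gut share from genotype. Phosphoglycolate phosphatase 1B (LOC5568749) had 323, 699 and 324 TPM in the mutant libraries, against 72.6, 725 and 1373 TPM in the wild-type libraries, a range that came from the wild-type libraries.

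Gr34 itself (LOC5570009, chromosome 3, 212688192 to 212705120, minus strand) was barely detected: 2, 11 and 2 counts in the mutant libraries and 2, 4 and 16 in the wild-type libraries. These are too few for a test, and no difference could be detected at this depth. Transcript counts do not check the genotype labels, since the lesion's position was not given.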

How the data were processed

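PolyA RNA was sequenced as NEBNext Ultra II libraries, per the labels' protocols. The submitters' processing notes name STAR, FastQC, DESeq2 and featureCounts of Subread without versions; genome build, strand and multi-mapping settings were not given in the sources used here. Estimated counts per gene were deposited by the authors, with a fraction in 24.6% of fat body values, beside TPM values, also deposited by the authors. The authors' deposited DESeq2 table holds a mean normalized signal (baseMean), a log2 fold change with its error, a test score and p-values, per the file headers; it was used only to compare calls. Of 19256 genes, 18399 matched the AaegL5.0 gene table, and 18363 of 18393 positions were identical. Overlaps and printed positions use that build.

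Counts were rounded to whole numbers and fitted with edgeR 4.0.16 (R 4.3.3) on the 6 fat body libraries (TMM, filterByExpr with a count of 10 and a total of 15, quasi-likelihood F-test, two-sided, Benjamini-Hochberg adjustment over all tested genes, threshold 0.05). Fold changes are mutant over wild type. The difference between tissues is a contrast over all 12 libraries. Alternatives are DESeq2 1.42.0, limma-voom (limma 3.58.1), DESeq2 size factors, library size only, a newer quasi-likelihood method, other filters, whole counts only, limma on log2(TPM + 1) and log2(TPM + 0.1), all 12 libraries, a replicate block and each library left out. The ovary and gut shares as covariates were added after the data were seen.

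The members and the 27 gene lists, text patterns on gene descriptions, were chosen with earlier results of these data known. Named genes are the 12 largest rises and falls among called, described, non-overlapping genes of at least 5 CPM, 2 uncharacterized genes each way, the 3 most abundant members and called members of the reserve, lipid and secreted lists, the most abundant and called members of other lists, the 15 most abundant genes, 5 genes of at least 100 TPM with the widest range within a genotype, and Gr34; some rule genes are summarised rather than named. On simulated data (11306 genes) the test called 1 of 49 genes changed 2-fold, 28 of 50 changed 4-fold, 48 of 50 changed 16-fold and 8 of 11107 unchanged genes. The reads have no molecular identifiers, so floors reflect counting error alone.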

Additional observations from a re-analysis of the deposited data

Results flagged for a closer look

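In 5 of the 27 called genes the effect of genotype differed between fat body and brain by the contrast over all 12 libraries. Torso (LOC5574477) rose more in fat body, by 3.12 on the log2 scale, serine protease 53 (LOC5572144) by 3.26 and the VPS18 homolog (LOC5564402) by 2.46. The uncharacterized genes LOC110681507 and LOC110681508 fell in fat body and were not called in brain, with differences of -4.28 and -4.22. The adjusted p of these differences ran from 0.00642 to 0.0296. No explanation was tested. Torso overlaps other genes, and the last pair keeps a near-constant count ratio, so its reads cannot be assigned with certainty.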

How the results depend on the processing

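Counts of called genes depended on the processing, while none of the 27 called genes changed sign under the alternatives that tested them. Whole counts only tested 4 of the 27, and a filter of 1 CPM in 3 libraries tested 26. All alternatives reuse the same fat body libraries, in which the genotypes did not overlap for any of the 27, so a kept sign adds little. Higher and lower calls, 16 and 11 as reported, were 0 and 1 with library size only, 33 and 27 with the newer quasi-likelihood method, 32 and 23 with no filter, 1 and 1 over whole counts only, 214 and 167 with DESeq2, and 223 and 139 with all 12 libraries in one fit. limma-voom gave 25 and 15, limma on log2(TPM + 0.1) 24 and 26, and on log2(TPM + 1) 14 and 14; they kept 23, 19 and 15 of the 27 calls. With the ovary and germline share as a covariate they were 134 and 106. With the gut share, which partly follows genotype, they were 0 and 0 (707 at an unadjusted p under 0.05). Leaving out 1 library gave 0 to 15 higher and 0 to 22 lower calls. The causes were not tested. DESeq2 size factors (17 and 11) and a filter of 1 CPM in 3 libraries (16 and 10) gave close counts. Of the list medians, 526 stayed within the spread between replicates and 14 moved beyond it, most of them without wild-type replicate 1.

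Replicate numbers are shared by the genotypes, and the labels give no more than the number. Same-numbered pairs did not all deviate together (correlations 0.202, 0.358 and -0.264). So few libraries cannot decide whether same-numbered libraries share a batch. As a hint from the data and not the design, mutant library 1 correlated best with its own number, mutant library 2 with wild-type library 3 (0.465) and mutant library 3 with wild-type library 1 (0.41). With a replicate block 27 genes were higher and 27 lower, and the difference between tissues was called for 20 genes, against 60 without it.

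Depth limited Gr34 and genes under 1 CPM. A 2-fold change was seldom called in the simulation, so genes that missed the threshold are not shown to be equal.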

Other observations

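Members of lists given above that were not described there also stood apart by library or genotype, each chosen after its values were seen. Vasa (LOC5565755), a germline helicase of the ovary marker list, had 104, 653 and 208 TPM in the mutant libraries, against 88.2, 459 and 619 TPM in the wild-type libraries, and its lowest libraries were replicate 1 of each genotype. V-type proton ATPase subunit d 1 (LOC5574244), a Malpighian tubule marker and part of the pump that acidifies vesicles and drives tubule secretion, had 36.9, 42.6 and 51.7 TPM in the mutant libraries, against 10.6, 14.8 and 12.5 TPM in the wild-type libraries, with no overlap (edgeR adjusted p 0.103). Mitochondrial enolase superfamily member 1 (LOC5570500) is in the glycolysis list by its description, and a part in glycolysis was not tested. This gene had 3.96, 6.05 and 8.73 TPM in the mutant libraries, against 0.448, 1.33 and 1.57 TPM in the wild-type libraries (edgeR adjusted p 0.0691). Angiopoietin-2 (LOC5578475), a fibrinogen-domain protein of the recognition list, had 6.12, 5.60 and 5.48 TPM in the mutant libraries, against 1.54, 0.980 and 0.9998 TPM in the wild-type libraries (adjusted p 0.240). Neither overlapped between genotypes, and edgeR called none of these genes, while DESeq2 called the last 3.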
